A study of Caenorhabditis elegans with 4 samples.

Results

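Transcripts of 10 antioxidant enzyme genes were followed in whole young adult Caenorhabditis elegans: the superoxide dismutase genes sod-1 to sod-5, the catalase genes ctl-1 to ctl-3 and the peroxiredoxin genes prdx-2 and prdx-3. The members were chosen by gene symbol, each from a single row of a count table of 20182 genes, and 8 of the 10 had enough counts to be tested. Total RNA was sequenced from 2 libraries of N2, the standard laboratory wild type, and 2 libraries of a double mutant of cey-1, allele rrr12, and cey-4, allele ok858, referred to as the mutant. The affected genes code for Y-box proteins, which bind mRNA through a cold shock domain. All worms were raised from hatched larvae on OP50 bacteria, and the labels name no treatment. The labels give 1 mutant strain, and they do not state whether replicate libraries stem from separate cultures. The p-values below therefore reflect only the variation among these 4 samples, which may be technical.

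Superoxide, a by-product of respiration and of oxidases, is converted by superoxide dismutases into hydrogen peroxide and oxygen. Catalases split hydrogen peroxide directly, while peroxiredoxins reduce it through a reactive cysteine that is then restored by thioredoxin. In this worm the enzymes are divided between compartments: sod-1, sod-5 and prdx-2 encode mainly cytosolic enzymes, sod-2, sod-3 and prdx-3 mitochondrial ones, sod-4 an extracellular or membrane-bound one, and ctl-2 a peroxisomal one. In worms sod-3 is widely used as a reporter for DAF-16, the FOXO transcription factor of the insulin pathway.

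Summed gene counts ran from 24717311 to 33009708 per library. The mutated genes were low in the libraries that carry the mutant label, cey-4 at 774 ± 17.4 CPM in wild type and 10.7 ± 0.831 CPM in the mutant, and cey-1 at 137 ± 10.1 and 23.1 ± 2.06 CPM (SD, n = 2 each). CPM are counts relative to the library total after TMM scaling, a correction for composition. A gene was called where edgeR's quasi-likelihood test gave a Benjamini-Hochberg adjusted p under 0.05 over the 13944 genes tested. By that rule 26.4% of tested genes were called, 13.1% higher and 13.3% lower in the mutant. In whole worms fewer cells of a type and less RNA per cell cannot be told apart.

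Most of the tested antioxidant genes were lower in the mutant. Of the 8, 5 were called lower (sod-1, sod-2, sod-3, prdx-2 and prdx-3), against 13.3% of all tested genes, and 0 were called higher. No member was higher at an unadjusted p under 0.05 or by DESeq2, and DESeq2 called 4 lower. Of all 13944 tested genes DESeq2 called 1411 higher and 1324 lower. By edgeR 5289 of them had an unadjusted p under 0.05, in either direction. Without mutant replicate 1 the count was 3 lower and without mutant replicate 2 it was 2, while 1 member, ctl-2, was called higher without wild-type replicate 1. Calls over all tested genes also became fewer when a mutant library was left out. After removal of each library's trend on exon length, described below, 2 members were called lower, sod-2 and sod-3, against 8.41% of all tested genes. The median log2 fold change of the 8 was -0.54, against -0.01 over all tested genes. The values lay between -1.03 for sod-3 and 0.18 for ctl-2. In 7 of the 8, including the uncalled sod-4 and ctl-3, both mutant libraries lay below both wild-type libraries, as in 33.5% of all tested genes, and in ctl-2 both lay above, as in 30.6%. Either kind of separation held for 64% of all tested genes. Among the 5999 tested protein-coding genes with exon lengths between 706 and 1631 bases, the range spanned by the members, 16.9% were called lower and the median was -0.09. The 5 called members all lie between 700 and 900 bases. Among protein-coding genes of that length and at least 5 CPM, 33% were called lower and the median was -0.22.

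**Figure D1:**
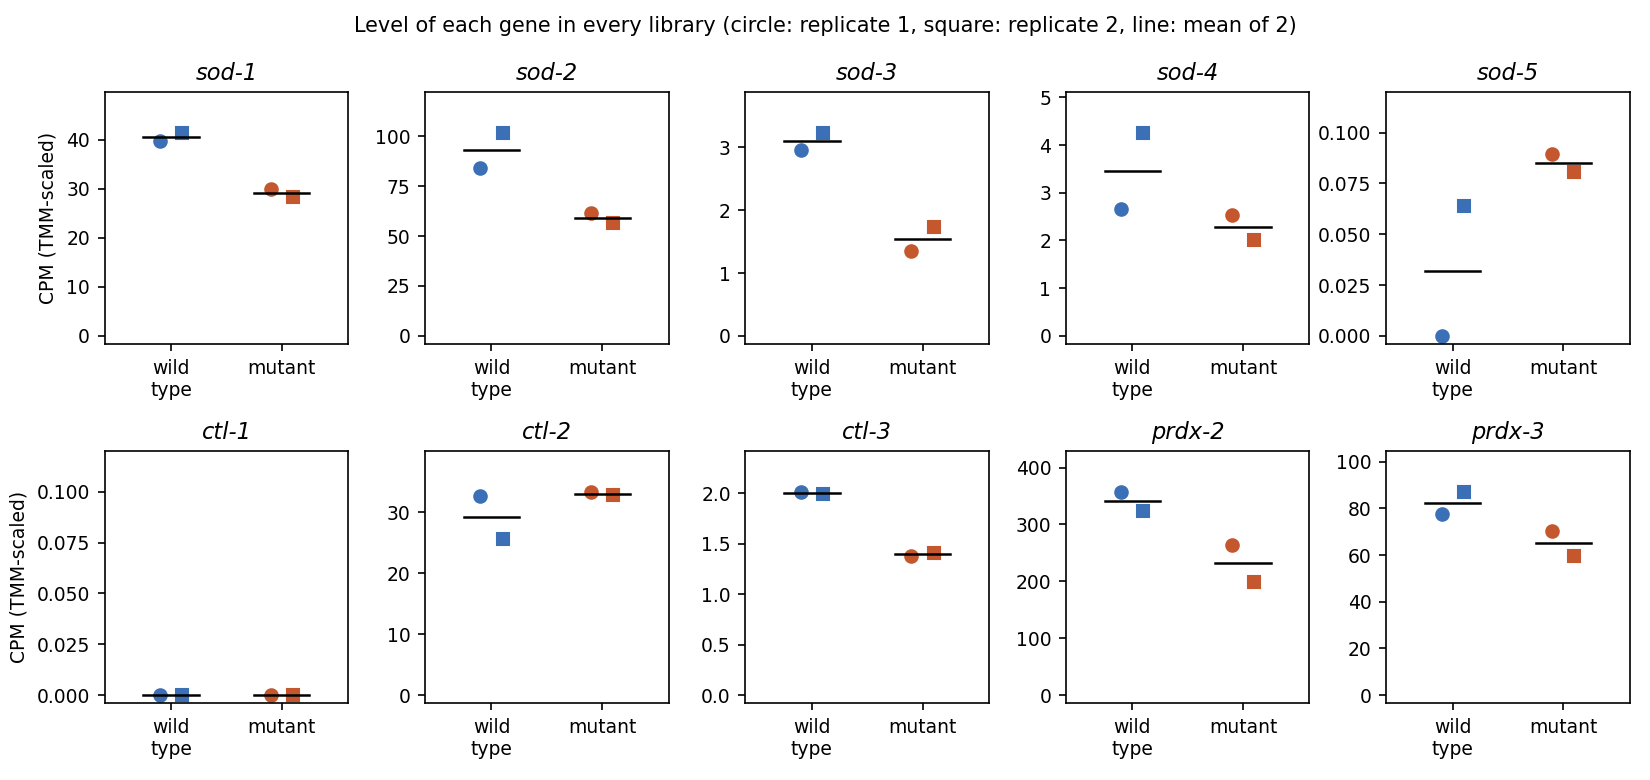
TMM-scaled CPM of each gene (vertical axis, linear and separate for each panel) in the 2 wild-type and 2 mutant libraries, with circles for replicate 1, squares for replicate 2 and a line at the mean. Both mutant libraries lie below both wild-type libraries for sod-1 to sod-4, ctl-3, prdx-2 and prdx-3, while ctl-1 is listed at 0 counts in all 4 libraries and sod-5 has at most 3 counts.

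Per kilobase of exon, the family was led by the cytosolic peroxiredoxin gene. The level of prdx-2 was 450 ± 31.01 RPKM in wild type and 307 ± 61.0 RPKM in the mutant (CPM per kilobase of summed exon length; SD, n = 2), and its mean over all libraries ranked 220 among 13590 tested genes with a known exon length. The mitochondrial genes sod-2 (116 ± 15.5 RPKM in wild type) and prdx-3 (107 ± 8.88 RPKM) followed, with means that lay within their spread. Within each wild-type library sod-2 was above prdx-3, at 105 against 101 RPKM in replicate 1 and 127 against 113 RPKM in replicate 2. In the mutant their order was the reverse, with 84.3 ± 10.2 RPKM for prdx-3 and 73.6 ± 4.19 RPKM for sod-2. There the libraries of prdx-3 (91.5 and 77.1 RPKM) lay narrowly above those of sod-2 (76.5 and 70.6 RPKM). The cytosolic sod-1 came next at 56.5 ± 1.64 RPKM in wild type, then the peroxisomal catalase gene ctl-2 at 18.1 ± 3.08 RPKM. The other genes were far lower: sod-3 had 3.52 ± 0.217, sod-4 2.65 ± 0.868 and ctl-3 1.23 ± 0.0108 RPKM in wild type. Within each wild-type library sod-3 was above sod-4, at 3.37 against 2.04 RPKM in replicate 1 and 3.67 against 3.26 RPKM in replicate 2. As a share of the counts of all 10 genes, prdx-2 took 55.0 to 59.6% in wild type and 52.2 to 56.9% in the mutant.

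Both mitochondrial superoxide dismutase genes were lower in the mutant. The gene sod-2 (WBGene00004931, chromosome I, 8434550 to 8435807, plus strand, assembly WBcel235) encodes the main manganese superoxide dismutase of the mitochondrial matrix. It had 2473 and 3179 counts in wild-type replicates 1 and 2 and 2052 and 1405 counts in mutant replicates 1 and 2, or 84.3 and 102 CPM against 61.4 and 56.6 CPM. Both mutant libraries lay below both wild-type libraries, and the wild-type pair stood further apart than the mutant pair. The log2 fold change was -0.66 ± 0.11 (SE; 95% interval -0.90 to -0.41; edgeR adjusted p = 0.00224), a level that fell by 36.6%. It was called under each of the 12 alternative settings, at -0.79 to -0.44, but only narrowly without mutant replicate 2 (-0.57). The whole of sod-2 lies within the span of dpt-1 on the opposite strand, but only 21 bases of their exons overlap, and dpt-1 itself was at -0.19 ± 0.09 on the log2 scale (edgeR adjusted p = 0.151).

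The second manganese enzyme gene, sod-3 (WBGene00004932, chromosome X, 17092753 to 17094306, plus strand), was weakly counted, with 87 and 101 counts in wild type and 45 and 43 in mutant libraries. Its levels were 2.97 and 3.24 CPM in wild type against 1.35 and 1.73 CPM in the mutant. The groups did not overlap, and mutant replicate 1 was the lowest. The log2 fold change was -1.03 ± 0.22 (95% interval -1.51 to -0.55; edgeR adjusted p = 0.0064), the lowest of the 8 tested members. It was not called without mutant replicate 1 (-0.83, edgeR adjusted p = 0.0753). Exons of sod-3 overlap those of C08A9.3 by 65 bases and those of lido-1 by 24 bases, both on the opposite strand. C08A9.3 had at most 2 counts in a library, and lido-1 had 98 to 154.

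Of the cytosolic and extracellular copper/zinc enzymes, sod-1 was lower and sod-4 did not pass. The gene sod-1 (WBGene00004930, chromosome II, 6972706 to 6973887, minus strand) had 1168 and 1295 counts in wild type and 1003 and 706 in mutant libraries, which is 39.8 and 41.5 CPM against 29.995 and 28.4 CPM. The replicates of each group were close and the groups were separate. The log2 fold change was -0.48 ± 0.10 (95% interval -0.70 to -0.25; edgeR adjusted p = 0.00653). This call was lost without mutant replicate 2 (-0.41, edgeR adjusted p = 0.0934). Its exons share 85 bases with the noncoding gene C15F1.13 on the opposite strand, which was not analysed here. The extracellular sod-4 (WBGene00004933, chromosome III, 9496884 to 9500375, minus strand) had 78 and 133 counts in wild type and 85 and 50 in mutant libraries, or 2.66 and 4.26 against 2.54 and 2.01 CPM. Wild-type replicate 1 was close to mutant replicate 1. Its log2 fold change was -0.59 ± 0.25 (95% interval -1.14 to -0.04; edgeR adjusted p = 0.107). It was called without wild-type replicate 1 (-0.89, edgeR adjusted p = 0.00117), while without wild-type replicate 2 the value was -0.19 and without mutant replicate 2 it was -0.42. Its exons share 175 bases with those of ctr-9 on the opposite strand, a gene counted 7123 to 9365 times in a library, at 0.11 ± 0.09 on the log2 scale. The minor cytosolic gene sod-5 (WBGene00007036, chromosome II, 4417633 to 4419130) had 0 and 2 counts in wild type and 3 and 2 in mutant libraries, too few for a fold change.

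The peroxiredoxin genes were both lower, prdx-3 narrowly. The gene prdx-2 (WBGene00006434, chromosome II, 5378195 to 5379631, plus strand) encodes the cytosolic typical 2-Cys peroxiredoxin. It had 10475 and 10111 counts in wild type and 8847 and 4948 in mutant libraries. Scaled to the library these were 357 and 324 CPM in wild type and 265 and 199 CPM in the mutant. The groups were separate, and mutant replicate 2 was much the lowest. The log2 fold change was -0.55 ± 0.13 (95% interval -0.83 to -0.27; edgeR adjusted p = 0.00971). Mutant replicate 2 carried a good part of it: without that library the value was -0.34 and was not called (edgeR adjusted p = 0.189), while without mutant replicate 1 it was -0.76. Its log2 ratio of mutant replicate 2 to replicate 1, -0.41, lay below the 5th percentile of all tested genes (-0.38).

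The mitochondrial peroxiredoxin gene prdx-3 (WBGene00011110, chromosome III, 4407444 to 4408437, plus strand) had 2270 and 2717 counts in wild type and 2357 and 1474 in mutant libraries, which scale to 77.4 and 87.1 CPM against 70.5 and 59.4 CPM. The gap between the groups, from 70.5 to 77.4 CPM, was smaller than the gap between the replicates of either. The log2 fold change was -0.34 ± 0.11 (95% interval -0.58 to -0.09; edgeR adjusted p = 0.0449). The call rested on the settings used, since 9 of 12 alternatives did not make it, with values of -0.46 to -0.11 over all 12. Among them were DESeq2 (-0.33, adjusted p = 0.0676), and the fits without wild-type replicate 2 (-0.24), without mutant replicate 1 (-0.46) and without mutant replicate 2 (-0.19).

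The catalase genes gave no call. They stand side by side on the minus strand of chromosome II, ctl-2 (WBGene00000831, 14299556 to 14302027), ctl-1 (WBGene00000830, 14303568 to 14306260) and ctl-3 (WBGene00013220, 14307798 to 14310779), with 1540 and 1537 bases between them. Nearly all catalase counts fell on ctl-2, which encodes the peroxisomal enzyme. It had 957 and 799 counts in wild type and 1114 and 813 in mutant libraries, or 32.6 and 25.6 CPM against 33.3 and 32.8 CPM. Wild-type replicate 1 was level with the mutant libraries and wild-type replicate 2 stood below them. The log2 fold change was 0.18 ± 0.13, with a 95% interval of -0.09 to 0.46 (edgeR adjusted p = 0.319). Its call depended on that library: without wild-type replicate 1 it was called higher (0.37, edgeR adjusted p = 0.027), and without wild-type replicate 2 the value was 0.03. Its exons share 65 bases with those of Y54G11A.7 on the opposite strand, which had a log2 fold change of -0.05 ± 0.11.

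The gene ctl-3, whose product is found in pharynx and neurons, had 59 and 62 counts in wild type and 46 and 35 in mutant libraries, which is 2.01 and 1.99 CPM against 1.38 and 1.41 CPM. Replicates were close and the groups separate, but the counts were few, and the log2 fold change of -0.52 ± 0.22 (95% interval -1.01 to -0.03) did not pass (edgeR adjusted p = 0.112). The cytosolic catalase gene ctl-1 was listed at 0 in all 4 libraries. A count of 0 allows up to 3 counts, 0.0897 to 0.121 CPM depending on the library, for counting error only. The 3 genes are closely related tandem copies, and the sources used here do not give how reads that match more than 1 copy were counted. The split between them is uncertain and the 0 does not show that ctl-1 was silent. With the counts of the 3 genes added into 1 row before the fit, the log2 fold change was 0.15 ± 0.12 (95% interval -0.12 to 0.42). Of the summed catalase counts ctl-3 held 5.81% (95% exact Clopper-Pearson interval 4.45 to 7.43) and 7.20% (5.57 to 9.14) in wild type, and 3.97% (2.92 to 5.25) and 4.13% (2.89 to 5.69) in the mutant. These intervals cover counting error only, and replicate libraries differed by more than that across all genes.

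Added up by enzyme class, with no test, the superoxide dismutase genes gave 130 and 151 CPM in wild type and 95.3 and 88.9 CPM in the mutant. The peroxiredoxin genes gave 435 and 411 CPM against 335 and 259 CPM. The catalase genes gave 34.6 and 27.6 CPM against 34.7 and 34.2 CPM. The first pair of classes was thus lower in both mutant libraries, and the catalase sums of the groups overlapped.

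**Figure D2:**
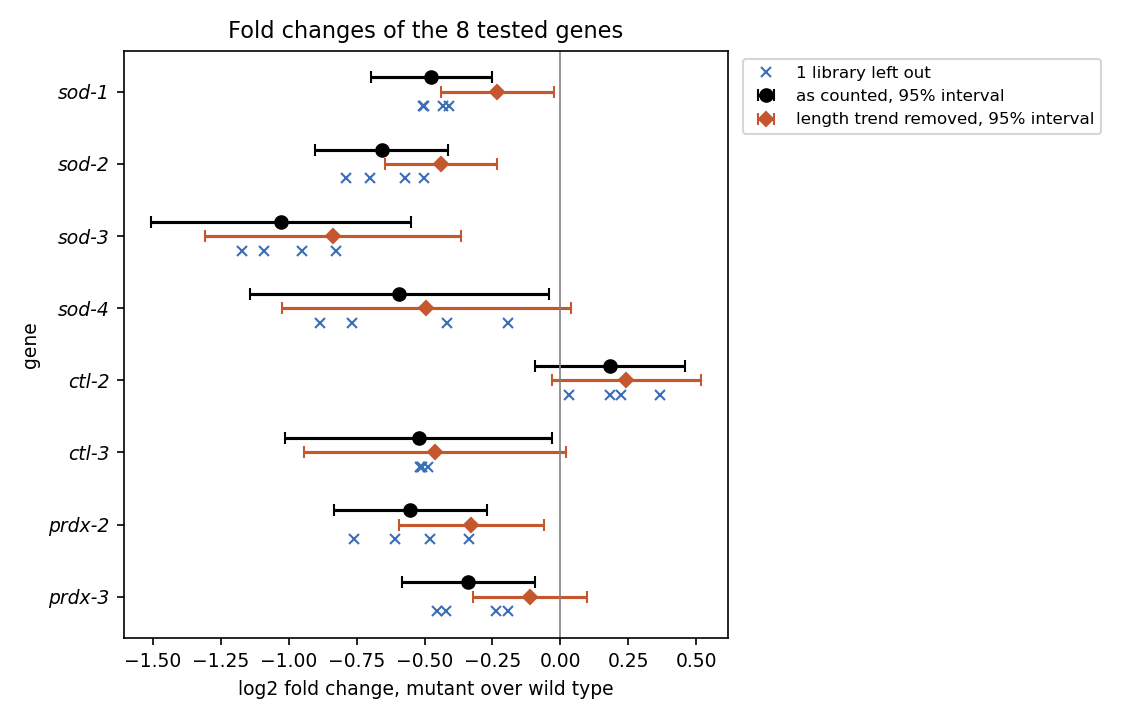
Log2 fold change of the 8 tested genes, mutant over wild type (horizontal axis), as counted (black) and after removal of each library's trend on exon length (orange), with 95% intervals, and with 1 library left out in turn (crosses, 4 per gene). For sod-1, sod-2, sod-3 and prdx-2 the interval stays below 0 in both fits, and of these only sod-2 and sod-3 were called in both. For sod-4, ctl-3 and prdx-3 it spans 0 once the length trend is removed.

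Exon length moved with these values. The members called lower were all short, with summed exon lengths of 720 (sod-1), 756 (prdx-2), 770 (prdx-3), 802 (sod-2) and 881 bases (sod-3). Among 682 protein-coding genes of 700 to 900 bases and at least 5 CPM, the median log2 fold change was -0.22 and 33% were called lower, against 1.2% of the 668 genes over 4000 bases, whose median was 0.18. Replicates differed along the same axis: genes of 700 to 900 bases had a median log2 ratio of 0.10 for wild-type replicate 2 over 1 and of -0.08 for mutant replicate 2 over 1. With each library's length trend removed, 2 of the 8 tested members were called lower, sod-2 (-0.44 ± 0.09, edgeR adjusted p = 0.00651) and sod-3 (-0.84 ± 0.21, edgeR adjusted p = 0.016), against 8.41% of all tested genes. The other 3 gave -0.23 ± 0.09 for sod-1 (edgeR adjusted p = 0.103), -0.33 ± 0.12 for prdx-2 (0.0751) and -0.11 ± 0.09 for prdx-3 (0.446). The median of the 8 was then -0.38, and that of all tested genes 0.03. The trend was fitted on genes of at least 5 CPM, which leaves out sod-3, sod-4 and ctl-3, so their correction comes from better-counted genes.

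**Figure D3:**
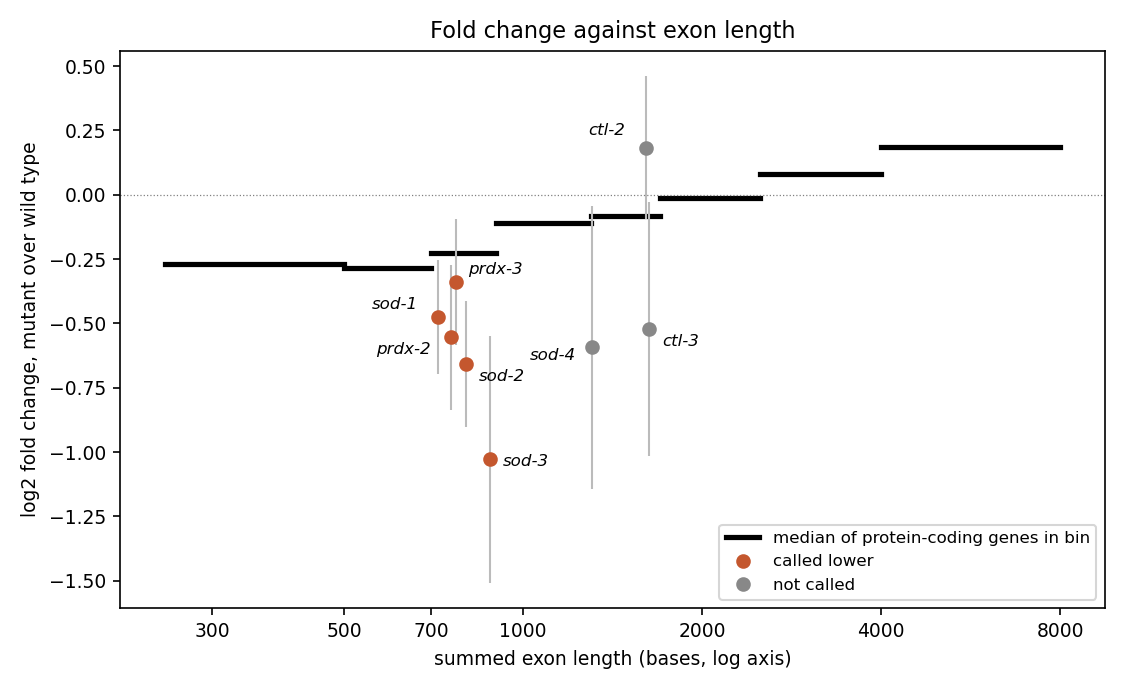
Log2 fold change, mutant over wild type, of the 8 tested genes with 95% intervals against summed exon length in bases (log axis), with black bars for the median of protein-coding genes of at least 5 CPM in 8 length bins, of which the outermost are open-ended. The bin medians run from -0.28 to 0.18 with length, and sod-2 and sod-3 lie furthest below the median of their bin among the short members. At 3.10 CPM in wild type and 1.54 CPM in the mutant (means), sod-3 is itself below the 5 CPM required of the binned genes.

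Genes that work beside these enzymes were also lower more often than higher. A list of 27 genes of thioredoxin and glutathione redox chemistry had 24 tested members, of which 10 were called lower and 0 higher, against 13.3% and 13.1% of all tested genes, with a median log2 fold change of -0.25. DESeq2 called 8 lower and 0 higher, against 1324 and 1411 of all 13944 tested genes. At an unadjusted p under 0.05, 3 genes were higher and 13 lower. The 0 called higher depended on the settings. It became 1 with DESeq2 size factors, a mean of 50 counts or a replicate block. With library size alone or limma it became 2, and with no filter 3. The methionine sulfoxide reductase gene msra-1, which repairs oxidised methionine, fell from 479 ± 12.9 CPM to 244 ± 17.7 CPM (-0.97 ± 0.09 on the log2 scale, edgeR adjusted p = 0.000189). The glutathione peroxidase gene gpx-3 fell from 4.01 ± 0.221 to 1.83 ± 0.0288 CPM (-1.13 ± 0.19, edgeR adjusted p = 0.00208). The glutaredoxin gene glrx-5 fell from 36.6 ± 0.669 to 20.4 ± 2 CPM (-0.84 ± 0.11, edgeR adjusted p = 0.000645). All 3 were still called with the length trend removed, at -0.72, -0.91 and -0.55, but over the list 4 genes were then lower and 1 higher, against 8.41% and 14.5% of all tested genes. Fewer were called lower without wild-type replicate 2 (6), without mutant replicate 1 (6) and without mutant replicate 2 (3).

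Within this list the recycling enzymes differed in their calls. Glutathione reductase, which restores glutathione and in this worm is encoded by gsr-1, was lower by transcript (-0.48 ± 0.09, edgeR adjusted p = 0.00364). The mitochondrial thioredoxin reductase gene trxr-2 was narrowly called lower (-0.32 ± 0.11, edgeR adjusted p = 0.0467), and the cytosolic trxr-1 was at 0.25 ± 0.09 (edgeR adjusted p = 0.0628). The glutathione synthesis genes gcs-1 and gss-1 were at -0.13 ± 0.09 and -0.0003 ± 0.09, and the 1-Cys peroxiredoxin gene prdx-6 at -0.01 ± 0.12, none of them called. Of 6 tested genes related to dual oxidases and heme peroxidases, enzymes that make or use peroxide, 0 were called higher, against 13.1% of all tested genes. None of the 6 was higher by DESeq2, against 1411 of all 13944 tested genes, or at an unadjusted p under 0.05. In the other direction 2 of the 6 were called lower, against 13.3% of all tested genes. These 2 were the peroxidase genes skpo-1 (-0.43 ± 0.10) and skpo-3 (-0.33 ± 0.10), and neither call was made when mutant replicate 1 (-0.49 and -0.28) or mutant replicate 2 (-0.33 and -0.34) was left out, nor that of skpo-3 without wild-type replicate 2 (-0.19). The dual oxidase gene bli-3 was at -0.05 ± 0.11.

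Peroxisomes, where the ctl-2 enzyme works, import their enzymes through a set of prx proteins. Of 16 tested genes of peroxisome assembly and transport, 0 were called in either direction by edgeR or by DESeq2. By edgeR 26.4% of all tested genes were called, and by DESeq2 2735 of 13944. Of the 16, 2 were higher and 2 lower at an unadjusted p under 0.05, which 5289 of all tested genes reached in either direction. The median log2 fold change of the 16 was -0.07. Leaving out wild-type replicate 1 gave 1 higher and 1 lower, leaving out wild-type replicate 2 gave 1 higher, and removal of the length trend gave 1 of each. The most counted of them, the transporter gene pmp-5, was at -0.23 ± 0.09 (edgeR adjusted p = 0.0851). Of 10 genes of peroxisomal beta-oxidation, which yields hydrogen peroxide at its oxidase step, 2 were called higher and 2 lower (20% each). Among all tested genes 13.1% were called higher and 13.3% lower. The higher pair are the acyl-CoA oxidase genes acox-1.2 and acox-1.5. The level of acox-1.5 rose from 35.9 ± 3.96 to 49.3 ± 1.19 CPM (0.46 ± 0.11), and the later-step genes maoc-1 and dhs-28 fell by 0.52 and 0.47 on the log2 scale. Without mutant replicate 1 neither oxidase was called, and without mutant replicate 2 the list had 0 calls in either direction.

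**Figure D4:**
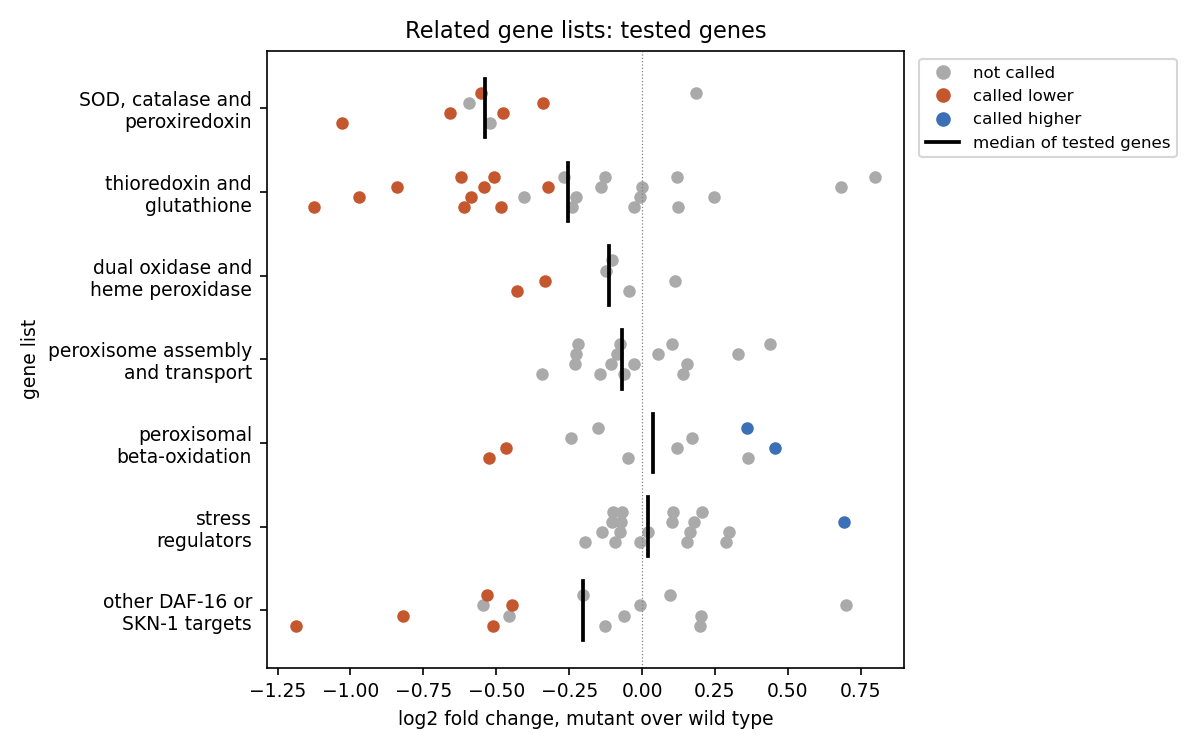
Log2 fold change, mutant over wild type (horizontal axis), of the tested genes of 7 lists, with 1 point per gene (orange called lower, blue called higher, grey not called, vertical offsets only for legibility) and a black bar at each list's median. The antioxidant genes and the thioredoxin and glutathione genes have medians of -0.54 and -0.25, and the stress regulators one of 0.02.

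Stress regulator genes were mostly not called, as with most tested genes. Of 19 tested genes of the insulin, p38 and SKN-1 stress pathways, 1 was called higher (5.26%) and 0 lower. Among all tested genes these shares were 13.1% and 13.3%. The median log2 fold change of the 19 was 0.02. DESeq2 gave 1 higher and 0 lower, against 1411 and 1324 of all 13944 tested genes. At an unadjusted p under 0.05, 3 of the 19 were higher and 0 lower. The FOXO gene daf-16 was at 0.17 ± 0.19 and skn-1, the worm counterpart of NRF genes, at 0.21 ± 0.10, while daf-2, the insulin receptor gene, was at 0.02 ± 0.13. The called gene was pqm-1, a zinc-finger factor that acts in opposition to DAF-16, which rose from 8.30 ± 0.995 to 13.4 ± 0.944 CPM (0.69 ± 0.14, edgeR adjusted p = 0.0049). Without wild-type replicate 1 the list had 3 called higher. Transcript levels do not measure where or how active these proteins were.

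Other genes reported as targets of DAF-16 or SKN-1 had 5 of 15 tested members called lower (33.3%) and 0 higher. Of all tested genes 13.3% were called lower and 13.1% higher. The list's median log2 fold change was -0.20. At an unadjusted p under 0.05, 0 of the 15 were higher. DESeq2 also gave 5 lower and 0 higher, against 1324 and 1411 of all 13944 tested genes. Of these 5, 4 were glutathione S-transferase genes. The SKN-1 reporter gene gst-4 had 35.5 and 44.03 CPM in wild type and 19.9 and 14.9 CPM in the mutant, groups that were separate, and was at -1.19 ± 0.15 on the log2 scale (edgeR adjusted p = 0.000589). The genes gst-7 and gst-10 were at -0.82 ± 0.11 and -0.53 ± 0.10, and gst-10 missed the threshold after removal of the length trend (-0.29) and without mutant replicate 2 (-0.44). The glyoxylate cycle gene icl-1 was at -0.45 ± 0.09 (edgeR adjusted p = 0.00453). Removal of the length trend gave 3 lower and 1 higher, and the list had 2 lower without mutant replicate 2 and 1 higher without wild-type replicate 2. With the length trend removed, the shares of all tested genes were 8.41% lower and 14.5% higher. The metallothionein gene mtl-1 had 0.537 and 0.908 CPM as group means and was not called (0.70 ± 0.46), nor was the lysozyme gene lys-7 (0.20 ± 0.10). The uncalled gcs-1 belongs to this list and to that of thioredoxin and glutathione genes.

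Some lists of tissue markers differed between the groups as well. Their calls as counted stand against 13.1% of all tested genes called higher and 13.3% lower. Of 15 sperm genes 14 were called higher and 0 lower, and their summed level was 275 to 310 CPM in wild type and 466 to 476 CPM in the mutant. Oocyte and eggshell genes had 4 of 14 called lower and 0 higher, with sums of 8670 to 9561 and 7472 to 7797 CPM. Body wall muscle genes had 5 of 11 called higher, with sums of 12036 to 12334 and 17120 to 17907 CPM. Intestinal genes had 3 of 10 called higher and 1 lower, with sums of 3374 to 3469 and 3758 to 4123 CPM. Yolk genes, made in the adult intestine, had 3 of 6 called higher, with sums of 36290 to 56734 and 63046 to 67688 CPM. Much of the rise in the muscle, intestinal and yolk sums came from a few highly counted genes. The median log2 fold changes of these lists were 0.26, 0.05 and 0.44, with 2, 4 and 1 values below 0. Neuronal genes had 2 of 14 called higher (14.3%) and 3 lower (21.4%), with overlapping sums. Genes of the hypodermis and cuticle had 1 of 12 called higher (8.33%) and 2 lower (16.7%), close to the shares of all tested genes, with sums of 5179 to 6086 and 4261 to 4735 CPM. Most of these sums came from 2 collagen genes. The median log2 fold change of the 12 was 0.13, with 5 values below 0. Removal of the length trend gave 0 higher and 1 lower of the yolk genes, 0 higher and 2 lower of the neuronal genes, 3 higher and 1 lower of the cuticle genes, 1 higher and 6 lower of the oocyte genes and 4 higher and 1 lower of the intestinal genes. It left 14 sperm and 5 muscle genes called higher and 0 lower in either list. With that trend removed, 14.5% of all tested genes were called higher and 8.41% lower. The counts also moved with the libraries used, as did the calls over all tested genes. Leaving out mutant replicate 1 left 9 sperm and 3 muscle genes higher and 2 oocyte genes lower, and leaving out mutant replicate 2 left 2 muscle genes higher and 2 oocyte genes lower. Without either of the mutant libraries 0 yolk and 0 intestinal genes were called higher and 0 cuticle genes lower. Leaving out a wild-type library gave 5 yolk genes higher (replicate 1) and 9 oocyte genes lower (replicate 2), and neuronal calls ranged from 0 to 4 higher over the 4 fits. The part of tissue make-up in the values of the antioxidant genes was not tested.

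The pattern of sod-2, the called member with the smallest adjusted p, was nearest to those of F54E2.1, T23C6.4 and ZK1248.11 among all tested genes. Their Euclidean distances from it were 0.0276, 0.0341 and 0.0400 in centred log2 CPM over the 4 libraries. Their log2 fold changes were -0.64, -0.70 and -0.64, and like sod-2 each was higher in wild-type replicate 2 than in replicate 1. Over 4 libraries such a likeness is a description only.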

How the data were processed

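The authors deposited raw counts per gene for the 4 libraries and log2 values. The log2 values are a transform of those counts, scaled to one total with 8 added before the logarithm (largest gap 0.000507), so low genes are compressed on that scale. RNA was isolated with Trizol and made into libraries with ScriptSeq v2, per the labels' protocols. How reads were aligned and counted, with which build, annotation and strand setting, is not stated in the sources used here. Counts of genes that overlap on opposite strands are therefore uncertain.

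Gene IDs were matched to symbols (18778 of 20182) and to Ensembl release 115 (WBcel235), which gave positions and summed merged exon length. Counts were tested with edgeR 4.0.16 (quasi-likelihood F test, TMM factors 0.985 to 1.01, default expression filter) in R 4.3.3. Standard errors were taken as the size of the log2 fold change over the square root of F, and intervals use the t distribution of the fit. RPKM are TMM-scaled CPM per kilobase of exon. Alternatives were DESeq2 1.42.0 and its size factors, library size alone, limma 3.58.1 on the deposited log2 values, no filter or a mean of 50 counts, each library left out, a replicate block, and removal, library by library, of a lowess trend on exon length (span 0.5, genes of at least 5 CPM). The edgeR fit and the trend removal were tested on simulated data. Figures were drawn with matplotlib 3.10.9.

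The members, gene lists and alternatives were chosen with earlier results of these data known. Beside the members, the text names from each list up to 3 called genes with the largest change or, with none called, the most counted gene, the genes overlapping a member, and the 3 genes nearest in pattern. Named genes of the tissue lists are given as counts only. Other genes of the lists (gsr-1, trxr-1, trxr-2, gcs-1, gss-1, prdx-6, bli-3, acox-1.2, daf-16, skn-1, daf-2, icl-1, mtl-1 and lys-7) were named for their roles after their values were seen. No library was a copy of its replicate: their counts differed beyond counting noise, with a chi-square of 30.7 (wild type) and 9.06 (mutant) for each degree of freedom. Counts were few for sod-3, sod-4 and ctl-3, and each group has 2 libraries.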

Additional observations from a re-analysis of the deposited data

How the results depend on the processing

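Of the 8 tested members, sod-2 was called under all 12 alternatives, sod-3 under 11, sod-1 and prdx-2 under 10 each, prdx-3 under 3, sod-4 under 2, ctl-2 under 1 and ctl-3 under 0, and each kept its direction. The number of members called lower, 5 as counted, was 2 to 6 when 1 library was left out, and the number called higher, 0 as counted, was 0 to 1. Over all tested genes the same fits gave 961 to 2042 higher and 447 to 2307 lower, against 1821 and 1858, and each leaves a lone library in a group that is assumed to vary like the other. Removal of the length trend left 2 members and 1173 genes lower. That fit takes out a trend shared by genes of like length, whatever its cause, which was not tested. The replicate block, which treats libraries of the same number as a pair, gave 5 members lower and 3519 called genes against 3679. The labels give no shared source for equal numbers, and deviations of same-numbered libraries correlated at -0.0728 over 13944 genes, so the numbers were not taken as pairs. No fold change is given for sod-5 and ctl-1, at or under 3 counts in each library.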
